A study of Mus musculus with 15 samples.

Results

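The trophoblast lineage genes Elf5, Cdx2, Eomes, Hand1, Tfap2c, Gata3, Krt8, Krt18, Ascl2 and Plac1 were followed in mouse embryonic stem cells (ESCs) depleted of TET1 or TET2. These 10 genes were chosen by name, and all 10 were found among the 26061 genes of the table, Tfap2c under its older symbol Tcfap2c. All libraries came from E14, an ESC line of 129/Ola background grown without feeders in serum and LIF. Every culture was infected with a lentiviral pLKO.1 vector and selected in puromycin for 3 days, starting 24 h after infection. The vector carried a non-targeting hairpin (shScr, the control), a hairpin against Tet1 (shTet1) or a hairpin against Tet2 (shTet2), with 5 libraries of rRNA-depleted RNA in each group. Each knockdown rested on a single hairpin in a single line, and the labels do not say whether the replicates were separate infections, so p-values measure the spread between these libraries.

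Trophoblast is the first lineage to leave the embryo proper and forms the placenta. ESCs are derived from the inner cell mass and normally contribute little to it. CDX2, EOMES, ELF5, GATA3 and TFAP2C are transcription factors of trophoblast stem cells, ASCL2 and HAND1 act in the differentiating placenta, KRT8 and KRT18 pair into the filaments of simple epithelia such as the trophectoderm, and PLAC1 is a placental surface protein. TET enzymes oxidise 5-methylcytosine at CpG sites, and the Elf5 promoter is a known methylated barrier between ESCs and trophoblast.

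The hairpins lowered their targets. Normalised Tet1 reads in shTet1 were 27.8% of those in shScr, and Tet2 reads in shTet2 were 26.6%. Gene reads per library ranged from 15258291 to 35432425. In 4 libraries (shScr replicate 4, shTet1 replicates 3 and 4 and shTet2 replicate 4), genes of olfactory and vomeronasal receptors, which ESCs are not known for, took 52.0 to 61.6 RPM (reads scaled to the depth of the library) against 9.43 to 26.0 RPM in the other 11. Results that rest on these 4 libraries are given with and without them. Among 12 ES cell identity genes, which include Pou5f1, Sox2 and Nanog, summed levels lay between 2135 and 3203 RPKM (reads scaled to exon length and library depth), and 0 of 12 passed the test in any comparison without the replicate block described below.

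The promoters of the members that the results turn on are shown here because CpG sites are the substrate of TET enzymes. Each is the RefSeq promoter (GRCm38.p6), 250 bases before to 50 bases after the start of the gene, written on the strand of the gene with each CpG in capitals. Eomes lay at chr9:118477939-118478238 on the + strand, Ascl2 at chr7:142969215-142969514 on the - strand, Krt8 at chr15:102004293-102004592 on the - strand and Krt18 at chr15:102027966-102028265 on the + strand.
Eomes: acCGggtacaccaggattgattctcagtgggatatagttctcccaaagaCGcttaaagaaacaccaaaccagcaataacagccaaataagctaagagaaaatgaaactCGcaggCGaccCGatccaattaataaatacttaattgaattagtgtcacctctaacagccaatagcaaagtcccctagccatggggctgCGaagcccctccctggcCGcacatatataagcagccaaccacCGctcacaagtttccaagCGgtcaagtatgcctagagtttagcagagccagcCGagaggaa
Ascl2: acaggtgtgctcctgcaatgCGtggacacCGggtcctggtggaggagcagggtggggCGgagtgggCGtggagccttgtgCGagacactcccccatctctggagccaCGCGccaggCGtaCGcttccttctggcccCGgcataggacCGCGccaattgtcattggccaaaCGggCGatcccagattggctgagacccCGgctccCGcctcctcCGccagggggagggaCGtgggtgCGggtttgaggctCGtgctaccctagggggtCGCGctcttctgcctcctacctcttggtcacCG
Krt8: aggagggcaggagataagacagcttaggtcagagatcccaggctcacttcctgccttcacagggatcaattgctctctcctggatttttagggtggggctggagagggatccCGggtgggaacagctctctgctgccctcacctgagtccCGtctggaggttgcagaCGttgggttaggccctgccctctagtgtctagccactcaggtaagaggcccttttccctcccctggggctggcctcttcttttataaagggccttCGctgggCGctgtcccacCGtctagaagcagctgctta
Krt18: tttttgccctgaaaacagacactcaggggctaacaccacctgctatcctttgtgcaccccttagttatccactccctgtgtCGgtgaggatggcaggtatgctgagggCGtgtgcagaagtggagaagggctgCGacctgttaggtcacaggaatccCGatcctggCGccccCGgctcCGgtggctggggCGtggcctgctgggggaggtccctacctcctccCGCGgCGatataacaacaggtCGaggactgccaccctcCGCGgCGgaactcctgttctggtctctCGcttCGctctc
Ascl2 held 23 CpGs, a number reached by 21.5% of 32851 promoters of this length. Krt18 held 17 (reached by 31.4%), Eomes 10 (43.5%) and Krt8 6 (56.4%), where the median promoter held 7. Promoters were found for 8 of 10 members. The counts describe the sequence, since methylation was not measured in these libraries.

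Levels between genes were compared per length, as RPKM over the 15 libraries. Tfap2c was highest with a mean of 14.9, followed by Krt18 with 12.7, Krt8 with 4.11 and Ascl2 with 2.50. Eomes had a mean of 0.938. Gata3, Hand1 and Cdx2 lay near 0.1, and Plac1 and Elf5 at 0.0177 and 0.00791. Within shScr, the lowest library of Ascl2 lay above the highest library of Eomes (1.77 against 1.04), whereas the ranges of the other 8 neighbouring pairs in the shScr order overlapped. The table holds variance-stabilised values, which are close to log2 for genes with many reads and where 4.25 stands for 0 reads, and all differences below are on that scale. In bulk RNA, fewer cells that express a gene and less RNA per cell cannot be told apart.

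**Figure D1:**
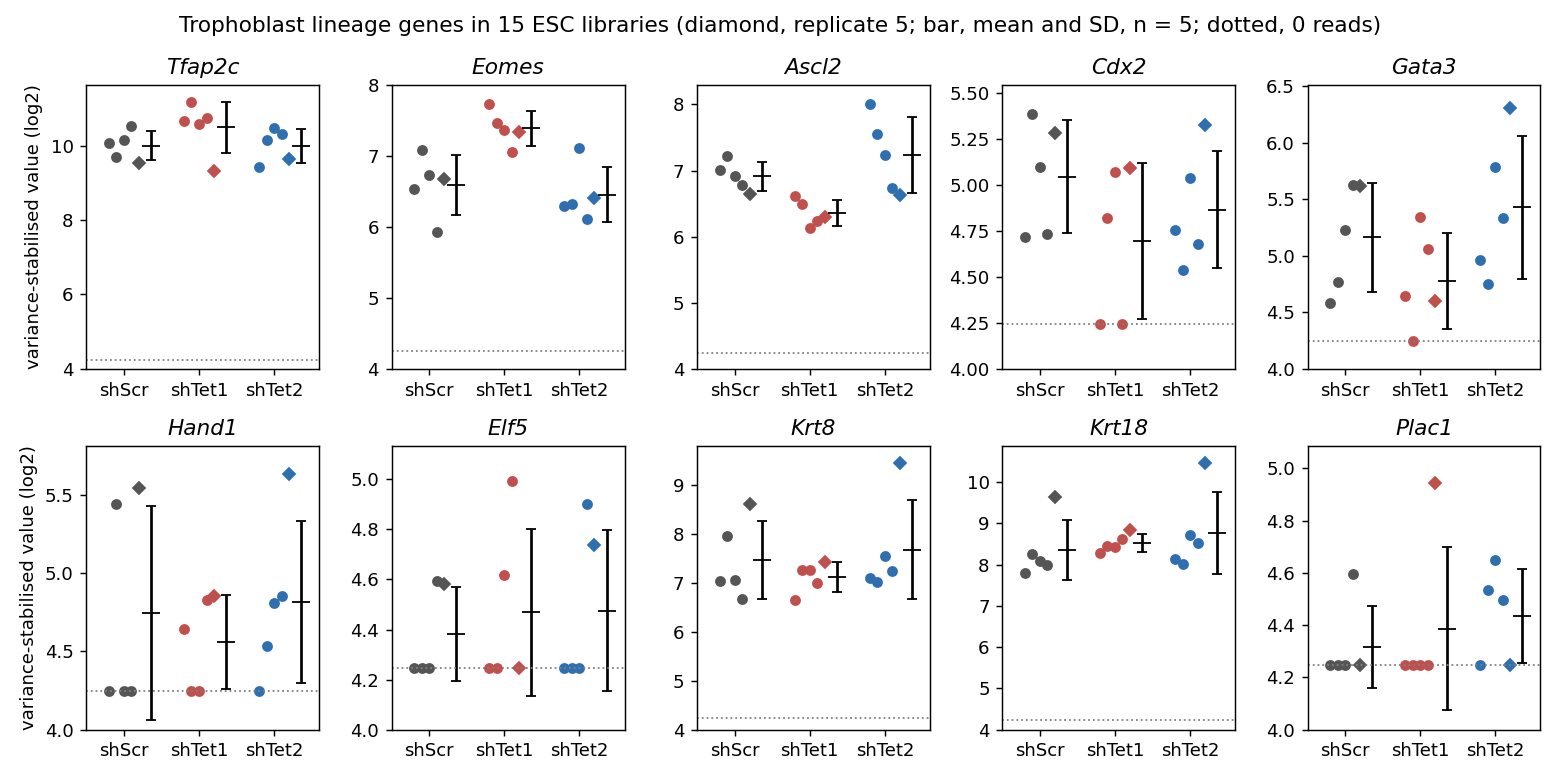
Variance-stabilised value (log2 scale) of each of the 10 genes in 5 libraries of shScr, shTet1 and shTet2, where diamonds are replicate 5, bars are mean and SD and the dotted line marks 0 reads. Eomes is highest in shTet1, Ascl2 is lowest in shTet1, and Krt8 and Krt18 are highest in replicate 5 of shTet2.

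All 10 members were tested with limma in a single fit over 19490 genes, a filter that a member near 0 reads could pass only through the libraries in which it was seen. In shTet1 against shScr, 0 of 10 passed an adjusted p of 0.05, where the background of all genes tested was 0.0718%. Between shTet2 and shScr, 0 of 10 passed, against 0.39% of all genes. In shTet2 against shTet1, Ascl2 was higher and Eomes was lower, so that 2 of 10 passed, against 4.24% of all genes. Unadjusted p-values under 0.05 were found for 2, 0 and 3 members in these comparisons, beside 11.8%, 11.6% and 15.7% of all genes tested. With the replicate number as a block in the fit, 1 (Eomes), 0 and 3 members (Ascl2, Gata3 and Eomes) passed over all genes. The block also raised the background, to 935, 840 and 2178 of the 19490 genes tested. The median member difference was -0.06, 0.11 and 0.21, beside 0.01, 0.04 and 0.01 for all genes tested. The 3 comparisons share libraries in pairs, so a value in one is not independent of the others. Groups did not overlap for 1 member (Ascl2) in shTet1 against shScr, where 2.62% of all genes did not overlap. They did not overlap for 0 members in shTet2 against shScr (background 2.7%) and for 1 member (Ascl2) in shTet2 against shTet1 (background 6.04%).

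Eomes encodes a T-box factor needed for trophoblast stem cells, which is also used in the primitive streak (mm9 chr9:118387330-118395250, + strand, 6 exon blocks). In shScr its value was 6.53, 7.08, 6.74, 5.93 and 6.68 in replicates 1 to 5. In shTet1 it was 7.73, 7.46, 7.36, 7.05 and 7.34. In shTet2 it was 6.29, 6.33, 7.12, 6.11 and 6.41. The shTet1 libraries were thus the highest, with an overlap at a single library of each other group. Eomes was lower in shTet2 than in shTet1 by a difference of -0.94 (SE 0.22, 95% confidence interval -1.40 to -0.48, limma adjusted p = 0.0185, exact permutation p = 0.0159), in 5 of 5 pairs of the same number. The adjusted p rose to 0.0697 without the replicates numbered 5, to 0.0556 without the 4 libraries rich in receptor reads, and to between 0.0518 and 0.0562 without shTet1 replicate 1 or shTet2 replicate 1, 2 or 4. The difference was -1.29 in replicates 1 and 2 and -0.70 in replicates 3 to 5, and neither subset alone passed (adjusted p = 0.104 and 0.382). In shTet1 against shScr the difference was 0.80 (SE 0.22, interval 0.34 to 1.26), or 134 ± 28.4 against 65.5 ± 25.8 normalised reads (SD, n = 5). This did not pass over all genes (limma adjusted p = 0.133, exact permutation p = 0.0159), but did with the replicate number as a block (adjusted p = 0.0176). Against shScr, shTet2 differed by -0.14 (interval -0.60 to 0.32, limma adjusted p = 0.883).

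Because Eomes also marks the primitive streak, 14 genes of streak and mesoderm were read beside it. Of the 13 tested, 0 passed in any of the 3 comparisons. The summed level of the list was 1.24 to 2.89 RPKM in control libraries, 1.92 to 2.43 RPKM after Tet1 knockdown and 2.07 to 3.96 RPKM after Tet2 knockdown. Mixl1, a streak homeobox gene, had the largest difference of the list in shTet1 against shScr (0.48, limma adjusted p = 0.340, and 0.19 without the receptor-rich libraries, adjusted p = 0.752), and Kdr, a receptor of early mesoderm, in shTet2 against shScr (0.60, limma adjusted p = 0.442). The part of streak-like cells in the Eomes values was not tested.

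Ascl2 encodes a basic helix-loop-helix factor of the spongiotrophoblast and is imprinted in the placenta (mm9 chr7:150152727-150155169, - strand, 3 exon blocks). Its value in replicates 1 to 5 was 7.02, 7.21, 6.91, 6.78 and 6.65 in shScr. It was 6.62, 6.49, 6.13, 6.24 and 6.29 in shTet1. In shTet2 it was 8.01, 7.55, 7.24, 6.73 and 6.63. All shTet1 libraries lay below all others, and the shTet2 libraries spread from the level of shScr to well above it. Ascl2 was higher in shTet2 than in shTet1 by 0.88 (SE 0.23, 95% confidence interval 0.41 to 1.35, limma adjusted p = 0.0312, exact permutation p = 0.00794, the smallest that 5 against 5 libraries can give). The adjusted p was 0.147 without the 4 libraries rich in receptor reads, and 0.0541 to 0.0937 without shTet1 replicate 2, 3, 4 or 5 or shTet2 replicate 1, 2 or 3. It was 0.0668 with no filter on low values and 0.0593 in a fit of these groups alone. The difference was 1.22 in replicates 1 and 2 (adjusted p = 0.0991) and 0.65 in replicates 3 to 5 (0.233). In shTet1 against shScr the difference was -0.56 (interval -1.03 to -0.09, limma adjusted p = 0.321, exact permutation p = 0.00794), from 86.8 ± 18.1 to 49.0 ± 10.9 normalised reads (SD, n = 5). The shTet2 difference from shScr was 0.32 (interval -0.15 to 0.79, limma adjusted p = 0.654).

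**Figure D2:**
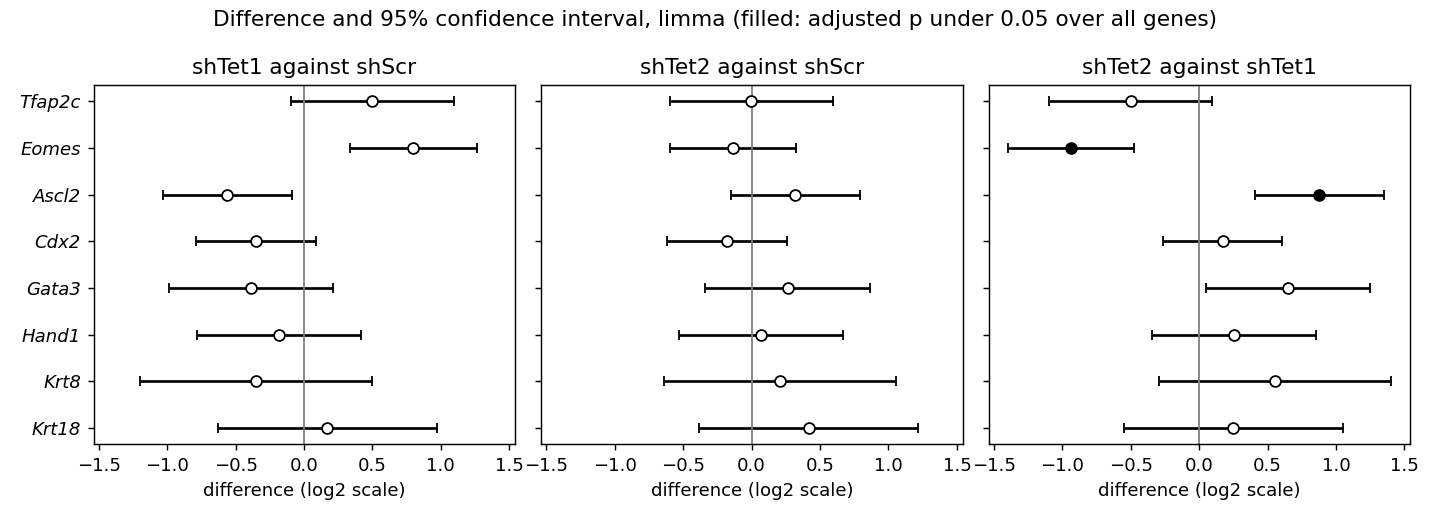
Difference between groups (log2 scale) with its 95% confidence interval for the 8 members with a mean above 3 reads per library in some group, in the 3 comparisons. Filled points, Eomes (-0.94) and Ascl2 (0.88) in shTet2 against shTet1, passed an adjusted p of 0.05 over all genes.

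Tfap2c, an AP-2 factor of trophoblast and germ cells (mm9 chr2:172375093-172384122, + strand), was the member with most reads, 536 to 2945 per library. Its value was 10.06, 9.70, 10.14, 10.54 and 9.54 in shScr, and 10.66, 11.16, 10.59, 10.74 and 9.33 in shTet1. In shTet2 it was 9.42, 10.15, 10.47, 10.31 and 9.63. Replicates 1 to 4 of shTet1 lay above every other library, and replicate 5 lay below every other library. The difference in shTet1 against shScr was 0.50 (interval -0.10 to 1.09, limma adjusted p = 0.532), with 1.03 in replicates 1 and 2 and 0.14 in replicates 3 to 5. Without shTet1 replicate 5 it was 0.79 (adjusted p = 0.0968), and under the replicate block its interval was 0.08 to 0.92 (adjusted p = 0.160). For shTet2 against shScr the interval was -0.60 to 0.59. Of exon bases, 7.42% lay in stretches of at least 50 bases that also occur elsewhere in the genome.

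Gata3, a GATA factor of the trophectoderm, had 0 to 41 reads per library. Its value was 4.58, 4.77, 5.23, 5.63 and 5.62 in shScr. It was 4.64, 4.25, 5.34, 5.06 and 4.60 in shTet1. The shTet2 libraries had 4.96, 4.75, 5.78, 5.34 and 6.31. The groups overlapped, with shTet2 replicate 5 highest. In shTet2 against shTet1 the difference was 0.65 (interval 0.05 to 1.25, limma adjusted p = 0.267, exact permutation p = 0.0952). With the replicate number as a block it passed (adjusted p = 0.0417). The difference was 0.38 without the replicates numbered 5. Its exons overlap other annotated genes over 3.90% of their bases on the opposite strand and 1.94% on the same strand, and whether counting used strand is not given in the sources used here.

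Cdx2, the homeobox factor that sets up the trophectoderm, was seen in 13 of 15 libraries with at most 10 reads, and Hand1 in 9 of 15 with at most 17. Cdx2 differed from shScr by -0.35 in shTet1 (interval -0.79 to 0.09) and by -0.18 in shTet2 (interval -0.62 to 0.26). Hand1 differed by -0.18 (interval -0.78 to 0.42) and by 0.07 (interval -0.53 to 0.67). Neither gene passed in any of the 3 comparisons. Cdx2 was lower in shTet1 in 5 of 5 pairs of the same number, with an interval of -0.67 to -0.03 under the replicate block (adjusted p = 0.191).

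Elf5, the ETS factor that locks in the trophoblast stem cell state, had 17 reads in all, in 6 of 15 libraries and at most 7 in any. shScr had 2 of these reads, shTet1 had 6 and shTet2 had 9. Replicate 4 held 5 of the 6 in shTet1 and 7 of the 9 in shTet2, and both libraries were rich in receptor reads. Outside the 4 receptor-rich libraries, Elf5 had 1 read in shScr replicate 5, 2 reads in shTet2 replicate 5 and 0 elsewhere. Plac1 had 8 reads in all, in 5 of 15 libraries. A library with 0 reads of Elf5 or Plac1 allows up to 3 reads, or 0.107 to 0.197 RPM, which covers counting error only. No fold change is given for these genes.

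Krt8 and Krt18 lie next to each other on chromosome 15 in mm9 (chr15:101827142-101834773 on the - strand and chr15:101858647-101862457 on the + strand), 23873 bases apart. Krt8 had the values 7.04, 7.96, 7.06, 6.67 and 8.61 in shScr. The shTet1 libraries had 6.64, 7.25, 7.26, 7.01 and 7.42, and the shTet2 libraries 7.09, 7.02, 7.56, 7.25 and 9.44. Krt18 had 7.81, 8.25, 8.08, 7.98 and 9.63 in shScr, with 8.27, 8.46, 8.42, 8.62 and 8.84 for shTet1 and 8.14, 8.02, 8.71, 8.52 and 10.47 for shTet2. Replicate 5 was the highest library of its group for both genes in all 3 groups. Normalised Krt8 reads in replicate 5 were 2.98 times the mean of the other 4 libraries for shScr, 1.38 times for shTet1 and 5.67 times for shTet2. For Krt18 the ratios were 3.34, 1.34 and 4.68.

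No comparison between groups passed for either keratin. Krt8 differed from shScr by -0.35 in shTet1 (interval -1.20 to 0.50) and by 0.20 in shTet2 (interval -0.64 to 1.05). Krt18 differed by 0.17 (interval -0.63 to 0.97) and by 0.42 (interval -0.38 to 1.22). Without shTet2 replicate 5, the shTet2 differences from shScr turned to -0.238 for Krt8 and -0.00552 for Krt18. Without replicate 5 of every group they were 0.0474 (adjusted p = 0.976) and 0.315 (adjusted p = 0.549). Of Krt8 exon bases, 6.43% lay in stretches of at least 50 bases that occur elsewhere.

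The keratins moved together across libraries. Deviations from the group means had Pearson's r = 0.939 and Spearman's rho = 0.871 over 15 libraries (permutation p = 1e-05, the smallest that the resamples can give, and 3e-05), the only pair of members tested. The permutations treat libraries as exchangeable, whereas same-numbered libraries deviated together, so these p-values are not those of independent libraries. Without shScr replicate 5 and shTet2 replicate 5, r was 0.670 and rho 0.742 over 13 libraries (permutation p = 0.0109 and 0.00489). Within replicates 3 to 5, which hold both of those libraries, r was 0.984 over 9 libraries. Within replicates 1 and 2 it was 0.968 over 6 libraries, where the 2 deviations of each group mirror each other. Replicate 5 was also the highest library of shTet2 for Cdx2, Gata3 and Hand1, and it was highest for 3, 5 and 5 of 10 members in shScr, shTet1 and shTet2, beside 14.6%, 26.2% and 19.2% of all genes tested. In shTet1 the 5 were Krt8, Krt18, Plac1 with 4 reads, Hand1 with 3 and Cdx2 with 6. There, Hand1 also had 3 reads in replicate 4, and Cdx2 had 5 in replicate 3. For the 27 other trophoblast genes tested, replicate 5 was highest for 5, 4 and 6 (18.5%, 14.8% and 22.2%). Among 14 other keratin and epithelial genes, replicate 5 was highest for 1 in each group, and their summed level in replicate 5 was the lowest of each group (209, 222 and 231 RPKM). Epcam and Cdh1 alone had means of 106 and 61.4 RPKM in shScr, so this sum says little of the other keratins.

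**Figure D3:**
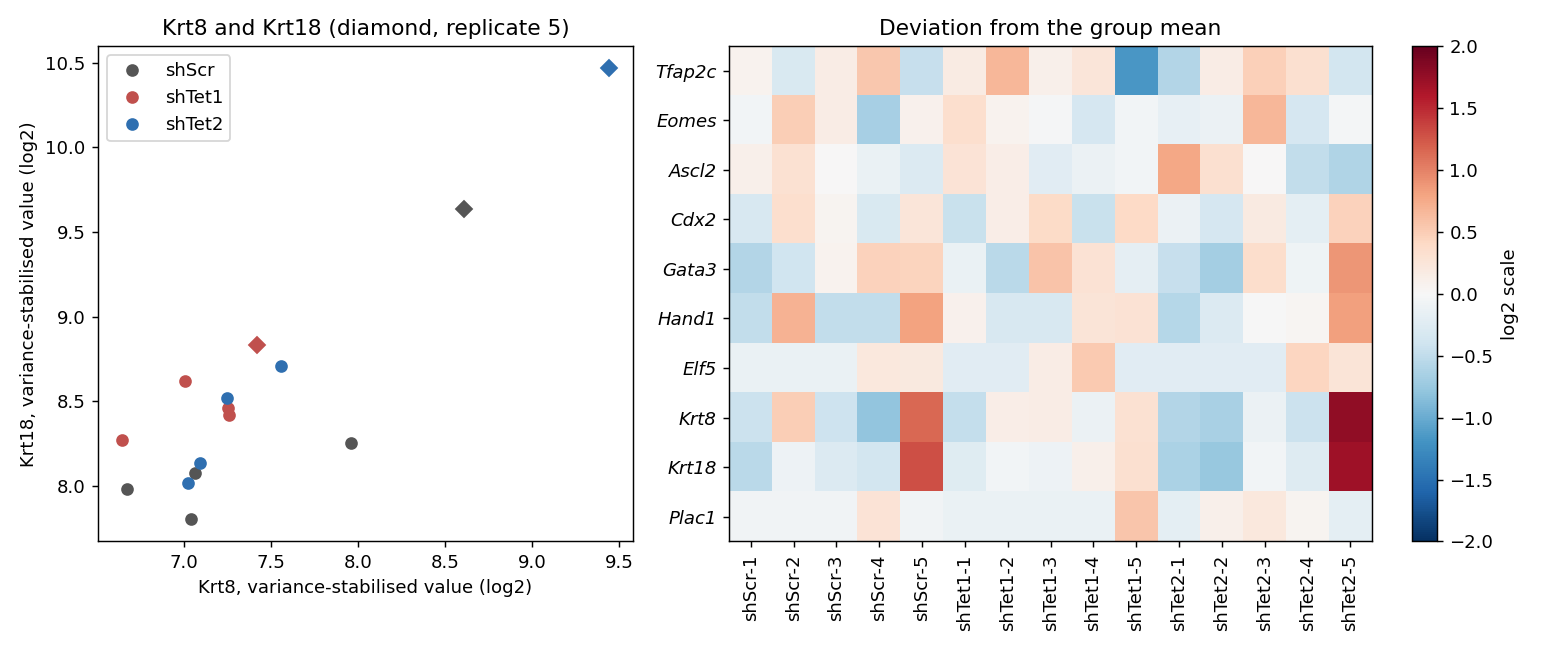
Left, Krt18 against Krt8 in each library (variance-stabilised values, log2 scale, diamonds for replicate 5). Right, deviation of each member from its group mean in each of 15 libraries. Replicate 5 of shTet2 (9.44 and 10.47) and of shScr (8.61 and 9.63) stand at the top right.

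The genes most like a member were named for those with a mean of at least 100 normalised reads, by the correlation of deviations from group means over 15 libraries among 10464 genes. For Tfap2c these were Il17rd (r = 0.934) and Sh3pxd2a (0.908). For Krt8 they were Phldb2 (0.942) and Krt18 (0.939), and for Krt18 they were Tpm1 (0.954) and Krt8 (0.939). These values are descriptions, as the libraries share depth and replicate effects.

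Of 33 other trophoblast genes, 27 were tested. In shTet1 against shScr 0 of 27 passed, beside 0.0718% of all genes tested. In shTet2 against shScr 1 of 27 was higher, beside 0.39% of all genes. In shTet2 against shTet1 2 were higher and 1 was lower, beside 4.24% of all genes. Unadjusted p-values under 0.05 were found for 3, 6 and 7 of 27, beside the 11.8%, 11.6% and 15.7% of all genes given above. The median difference was 0.17, 0.14 and 0.09. With the replicate block, 2 genes were lower in shTet1 than in shScr (Id2 and Igf2), and 3 were higher in shTet2 than in shScr (Krt19, Krt7 and Plet1). In shTet2 against shTet1 5 were higher with the block (Id2, Igf2, Krt19, Krt7 and Plet1) and 1 was lower (Tead4). The background with the block was 935, 840 and 2178 of 19490 genes. The largest differences of the list from shScr were those of Igf2, an imprinted growth factor, in shTet1 (-1.03, limma adjusted p = 0.493, and 0.0246 with the block) and of Plet1, a surface protein of trophoblast progenitors, in shTet2 (1.20, limma adjusted p = 0.0755). The placental genes Tpbpa and Prl3b1 had 0 reads in all libraries, and the summed level of the list was 108 to 155 RPKM for shScr, 104 to 163 RPKM for shTet1 and 128 to 181 RPKM for shTet2. Esrrb alone had a mean of 50.5 RPKM in shScr, Phlda2 23.2, Peg10 22.5 and Id2 14.3, so this sum says little of the other genes of the list.

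Krt19, a keratin of simple epithelia, was higher in shTet2 than in shScr by 1.12 (SE 0.22, interval 0.67 to 1.57, limma adjusted p = 0.0307, 5 of 5 pairs) and than in shTet1 by 1.07 (limma adjusted p = 0.00646). The first call was lost in 8 of 15 fits without a single library (any of shScr, or shTet2 replicate 1, 2 or 3, adjusted p 0.0503 to 0.105), with median centring (0.0544), with no filter on low values (0.0556), without the replicates numbered 5 (0.0707) and without the receptor-rich libraries (0.0699). The first call was also lost in replicates 1 and 2 alone (0.108) and in replicates 3 to 5 alone (0.405). The second was lost in 0 of 15 such fits, and in replicates 1 and 2 alone (0.116). Id2, an inhibitor of helix-loop-helix factors, was higher in shTet2 than in shTet1 by 1.14 (SE 0.22, limma adjusted p = 0.00503, kept in 15 of 15 such fits but not in replicates 1 and 2 or 3 to 5 alone, 0.125 and 0.0881). Against shScr, Id2 differed by -0.79 in shTet1 (limma adjusted p = 0.143) and by 0.35 in shTet2 (0.592). With the replicate block, its shTet1 difference from shScr had an adjusted p of 0.0120. Tead4, a TEA-domain factor upstream of Cdx2, was lower in shTet2 than in shTet1 by a difference of -1.05 (SE 0.27, limma adjusted p = 0.0321), with -1.88 in replicates 1 and 2 and -0.49 in replicates 3 to 5. This call was lost without shTet1 replicate 1, 2 or 4 or shTet2 replicate 1, 2, 3 or 5 (adjusted p 0.0553 to 0.0911), with no filter on low values (0.0875) and as RPM plus 1 (0.0741). Tead4 also did not pass in replicates 1 and 2 alone (limma adjusted p = 0.0695) or in replicates 3 to 5 alone (0.540).

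**Figure D4:**
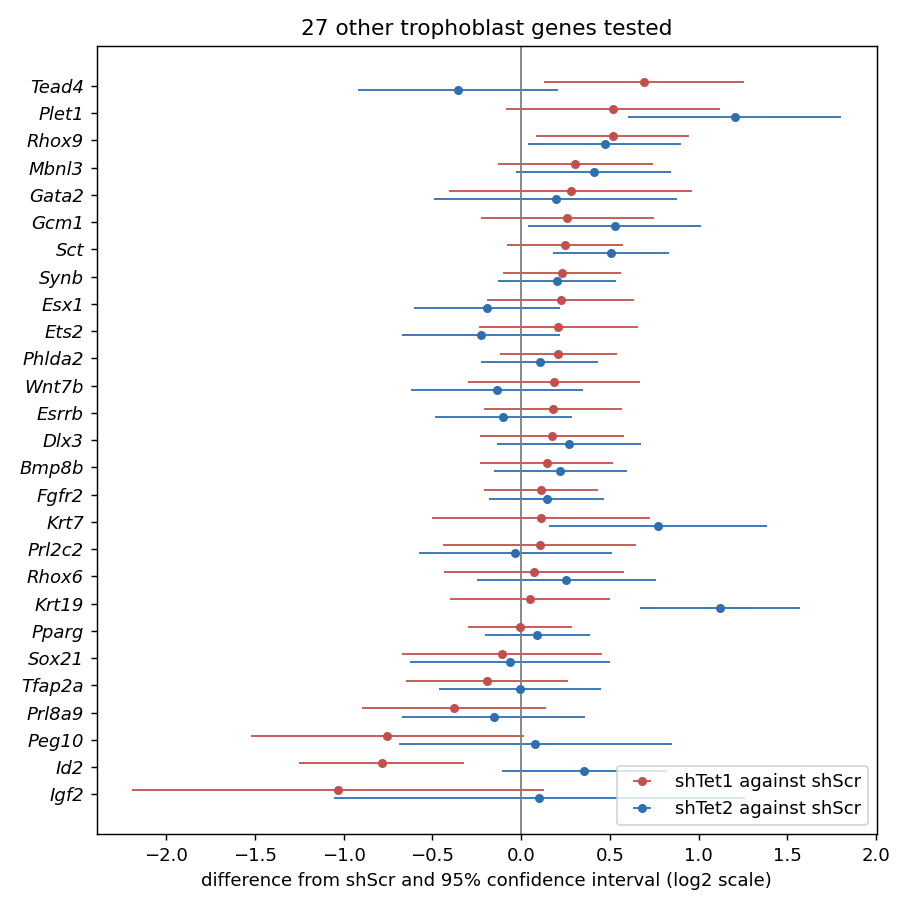
Difference from shScr (log2 scale) with its 95% confidence interval for the 27 other trophoblast genes tested, in shTet1 and in shTet2. Krt19 in shTet2 (1.12) was the gene that passed over all genes.

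Markers of 2 further groups of cells were read beside the members. Of 14 primitive endoderm genes, 0 passed in any comparison without the replicate block. Medians were -0.23 between shTet1 and shScr, -0.53 between shTet2 and shScr and -0.32 between shTet2 and shTet1. Unadjusted p-values under 0.05 were found for 1, 7 and 4 of 14, beside 11.8%, 11.6% and 15.7% of all genes. With the block, 4 were lower in shTet2 than in shScr, Cubn among them, where 840 of 19490 genes passed. In shTet2 against shTet1, 1 was higher and 2 were lower with the block, where 2178 passed. Cubn, an endocytic receptor of visceral endoderm, had the largest difference in shTet2 against shScr (-1.63, limma adjusted p = 0.0755), and Lama1, a laminin chain, in shTet1 against shScr (-0.45, limma adjusted p = 0.343). Of 14 other keratin and epithelial genes, 1 passed in shTet2 against shTet1, beside 4.24% of all genes. This was Krt15, with 0 to 25 reads per library, which was higher in shTet2 (0.88, limma adjusted p = 0.00248). Krt15 did not pass in replicates 1 and 2 alone (0.214) or 3 to 5 alone (0.0717). With the block, 3 of the 14 were higher and 2 were lower in shTet2 than in shTet1, where 2178 genes passed. With the block, 2 were also lower in shTet1 than in shScr (935 passed) and 1 was higher in shTet2 than in shScr (840 passed). Against shScr, Krt15 differed by -0.64 in shTet1 (limma adjusted p = 0.103, exact permutation p = 0.00794, and 0.0164 with the replicate block in limma) and by 0.24 in shTet2. Krt20 had the largest difference in shTet2 against shScr (0.63, limma adjusted p = 0.217). Among ES cell identity genes the largest differences were those of Lin28a in shTet1 (-0.64, limma adjusted p = 0.133, and 0.0159 with the replicate block, lower in 5 of 5 pairs) and Nr0b1 in shTet2 (-0.49, limma adjusted p = 0.248).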

How the data were processed

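RNA of 15 E14 ESC libraries (5 each of shScr, shTet1 and shTet2) was sequenced after rRNA depletion, and groups and replicate numbers came from the sample titles. Per the submitters' processing notes, reads were trimmed (Trim Galore 0.3.3) and aligned to mm9 (TopHat2 2.0.9), and the authors deposited variance-stabilised values on a log2-like scale made from gene counts with DESeq2. Whole reads were recovered by inverting the transformation (100% of values within 0.1 read, checked up to 1000 reads). These gave depth, 15258291 to 35432425 gene reads per library, and levels per length. Differences were tested on the deposited scale, and no count test was run on the recovered reads. The test was limma 3.58.1 in R 4.3.3 (lmFit, eBayes with trend, group only, all 15 libraries, two-sided) over 19490 genes above the minimum in at least 5 libraries, with Benjamini-Hochberg adjustment over all of them and a threshold of 0.05. Single differences also had a two-sided exact permutation test over 252 splits. The script was tested on simulated data.

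Same-numbered libraries deviated together in every pair of shTet1 and shScr (r 0.374 to 0.657) and of shTet2 and shTet1 (0.330 to 0.731). For shTet2 and shScr r ranged from 0.00789 to 0.769, with 4 of 5 pairs over 0.1. The pairing is thus a hint from the data, since the labels give only numbers. Blocked values are printed for some named genes only, so a missing one does not mean an unchanged call. With the block, Lin28a was also called higher in shTet2 than in shTet1, and Dppa5a lower. Between shTet2 and shScr, Krt20 was called higher and Nr0b1 lower with the block. Positions are from GENCODE vM1 (mm9), and copied exon stretches were found with BLAST 2.17.0. All 10 members are named, with genes of the other lists that passed and, in lists with fewer than 3 such genes, those with the largest difference in each knockdown. Igf2, Plet1, Krt7, Epcam, Cdh1, Esrrb, Phlda2, Peg10 and Dppa5a were named after their values were seen. Also named are the 2 most similar genes of members with at least 100 normalised reads. The members and lists were chosen with earlier results of these data known. Alternatives were other filters, scalings, weights, sample sets and the replicate block. The 2 that left out replicates 5 or the libraries rich in receptor reads were added after seeing the data. Which library had which of the 2 RNA extraction methods in the labels was not given.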

Additional observations from a re-analysis of the deposited data

Results flagged for a closer look

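Each member in each group of 5 libraries was read for a library whose gap to its nearest neighbour, as a share of the range of the group, was above 0.71, Dixon's 95% critical value, which chance passes in about 1 in 20 groups. Krt8 in shTet2 replicate 5 had a share of 0.778, at 9.44 beside 7.02 to 7.56 in the other 4 libraries. Krt18 had a share of 0.755 in shScr replicate 5 (9.63 beside 7.81 to 8.25) and of 0.717 in shTet2 replicate 5 (10.47 beside 8.02 to 8.71). Plac1 had a share of 1 in shScr replicate 4, with 1 read, and of 1 in shTet1 replicate 5, with 4 reads, where the other libraries of each group had 0. With the other 4 libraries tied at 0, any read gives this share, so the Plac1 values say nothing of how unusual these libraries are.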

How the results depend on the processing

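Of 642 values under alternatives for 24 member differences, 593 kept their direction and side of the threshold, 20 lost a call, 2 gained one and 27 turned direction, and 12 differences never changed. In shTet1 against shScr, 14 genes passed. With the replicate block 935 passed, with array weights 56, with a stricter filter 22, with only the groups compared 3, in replicates 1 and 2 or 3 to 5 alone 0 and 0, and without the libraries rich in receptor reads 1. For shTet2 against shScr 76 passed, beside 840 with the block, 283 with weights, 39 with median centring, 0 and 1 in the replicate subsets, 37 without replicates 5 and 13 without the receptor-rich libraries. In shTet2 against shTet1, 827 passed, beside 2178 with the block, 1246 with weights, 0 and 143 in the subsets and 345 without the receptor-rich libraries. Without single libraries the counts ranged from 1 to 171, 10 to 99 and 512 to 902.

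Members passing in shTet1 against shScr went from 0 to 1 with the block. Those in shTet2 against shTet1 went from 2 to 1 with no filter, with only the groups compared or without replicates 5, to 0 in either subset or without the receptor-rich libraries, and from 0 to 2 without single libraries. Other trophoblast genes passing went from 0 to 2 with the block in shTet1 against shScr. Between shTet2 and shScr they went from 1 to 0 with no filter, with median centring, in either subset or without the receptor-rich libraries, to 3 with the block and 2 with weights, and from 0 to 2 without single libraries. In shTet2 against shTet1 they went from 3 to 6 with the block, to 2 with no filter or as RPM plus 1, to 0 and 1 in the subsets, and from 2 to 3 without single libraries. The replicate block changed no call of a member beyond those of Eomes and Gata3.

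As a difference of shTet2 from shScr, Tfap2c turned to 0.0731 as RPM plus 1, to 0.0618 in replicates 3 to 5 and to 0.0556 without the receptor-rich libraries, and Eomes to 0.102 in replicates 3 to 5. Hand1 turned to -0.0355 with median centring, -0.0231 as RPM plus 1, -0.0140 with weights, -0.453 in replicates 1 and 2 and -0.0622 without the receptor-rich libraries. Krt8 turned to -0.00445 with weights and -0.441 in replicates 1 and 2. In shTet2 against shTet1, replicates 1 and 2 gave -0.0544 for Hand1 and -0.290 for Krt18, and Krt18 was -0.0982 without replicates 5. Without single libraries, shTet1 minus shScr ranged from -0.307 to 0.0178 for Hand1. Differences of shTet2 from shScr ranged from -0.119 to 0.143 for Tfap2c, -0.133 to 0.272 for Hand1, -0.238 to 0.490 for Krt8 and -0.00552 to 0.740 for Krt18. That of Krt18 from shTet1 ranged from -0.177 to 0.436. The cause was not tested. Elf5 and Plac1 had at most 7 and 4 reads in a library, which is too few for a difference to be given, and no test of detectability was run for the others.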
